A study of Mus musculus with 8 samples.

Results

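Hox genes encode homeodomain transcription factors that record where along the body and limb axes a cell was laid down. In mammals they lie in 4 clusters, Hoxa to Hoxd, and genes that share a number across clusters (a paralog group, numbered from 1 at the head end to 13 at the tail or digit end) descend from the same ancestral gene. Within a cluster, low-numbered genes are switched on earliest and nearest to the head, and high-numbered genes latest and nearest to the tail. In the developing limb, paralog groups 9 and 10 are known for patterning the upper segment (the femur in the hindlimb), group 11 the middle segment and groups 12 and 13 the hand or foot. Cells taken from adult tissues keep much of this code in culture.

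The 39 genes whose symbol is Hox, a cluster letter and a number were followed among the 54658 gene symbols counted by RNA-Seq. The libraries came from primary articular chondrocytes, the cells of joint cartilage, which were digested out of the femoral heads of wild-type mice at 3 weeks of age and plated, and no transgene or cell line was involved. In 4 samples the cells received IL-1β, a proinflammatory cytokine that activates NF-κB, at 1 ng/mL for 24 h, and in the other 4 they received vehicle. The labels number the samples of each group without naming separate animals or cultures, so that p-values measure the spread between these samples, which may be technical. The question was which clusters and paralog groups femoral head chondrocytes express, and which of them differ after IL-1β.

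Each sample held 10992355 to 17456063 counts, and 3 counts, taken as the smallest abundance that can be told from 0, came to a CPM (counts scaled to a fixed library total of 1000000) of 0.172 to 0.273. Of the 54658 symbols, 14404 reached a CPM above 1 in at least 4 samples and entered edgeR's quasi-likelihood test, among them 26 of the 39 Hox genes. The cells matched their label: all 14 chondrocyte markers were measured, with a summed level of 6650 to 6940 TPM (counts per base of gene length, scaled to the same total in every sample) with vehicle and 2870 to 2980 with IL-1β, and 13 of them were lower and 1 higher with IL-1β. Macrophage markers summed to 27.9 to 34.9 TPM with vehicle and 56.3 to 64.1 with IL-1β, mostly from Cd68 and Cd14. Of the 8 macrophage markers listed, 3 were tested (Cd14, Cd68 and Lyz2), of which 2 were higher and 1 lower with IL-1β. Their log2 fold changes ran from -0.598 to 1.86. C1qb was the only macrophage marker at 0 in every sample. The 5 endothelial markers summed to at most 0.618 TPM in any sample, the 6 skeletal muscle markers to at most 2.03, and the 5 adipocyte markers to 8.58 to 10.5 with vehicle and 2.52 to 3.32 with IL-1β. Fibroblast and synovial markers summed to 178 to 194 TPM with vehicle and 148 to 153 with IL-1β, and osteoblast markers to 248 to 278 and 104 to 111. In such bulk samples, fewer cells of a type and less RNA per cell cannot be told apart, and the part of these marker shifts in any Hox result was not tested.

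The clusters hold 11, 10, 9 and 9 genes. Hoxa lies on chr6:52155590-52260880 (minus strand, GRCm38, the assembly also called mm10), Hoxb on chr11:96194316-96368256, Hoxc on chr15:102921103-103036852 and Hoxd on chr2:74668310-74765142, these last 3 on the plus strand. Within the clusters, between Hox genes or inside the annotated span of one, lie microRNA genes whose products pair with Hox messages. The clusters thus carry part of their own post-transcriptional control. The mature forms of the miR-10 and miR-196 families are printed 5′ to 3′ from RefSeq. Capitals mark the seed (bases 2 to 8, the part that pairs with a target).
miR-10a-5p: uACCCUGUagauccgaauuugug
miR-10b-5p: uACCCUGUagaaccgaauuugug
miR-196a-5p: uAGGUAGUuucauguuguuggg
miR-196b-5p: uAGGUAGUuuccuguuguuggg
The miR-10 pair shares a seed and comes from the Hoxb and Hoxd clusters (chr11:96317186-96317208 and chr2:74726074-74726096). The miR-196 genes share another seed and lie in Hoxb (chr11:96265187-96265208), Hoxc (chr15:102973365-102973386) and, on the minus strand, Hoxa (chr6:52230129-52230150).

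A 7-base match to the miR-196 seed (actacct) was found in the longest annotated 3′ UTR of 9 of the 39 Hox genes, against 6.1% of all 21007 coding genes with a 3′ UTR, whose median length was 961 bases. A match to the miR-10 seed (acagggt) was found in 4 Hox genes, against 12.5% of all genes. Hoxa7 held 4 miR-196 seed matches and Hoxc8 held 2, more than any other Hox gene. The Hoxc8 site that is followed by A, on chr15:102993732-102993761, and the best-paired site of Hoxa7 (14 of 22 bases), on chr6:52215203-52215232 (minus strand), are shown with the seed match in capitals.
Hoxc8: ataaatctttaacatACTACCTaaagggaa
Hoxa7: tactactagccctaaACTACCTattgtgtg
Hoxb8 holds no perfect seed match but pairs with miR-196a over almost its whole length. Capitals mark the 21 bases of the 22 that pair by Watson-Crick rules on chr11:96284888-96284909, and the single lower-case base forms a G:U pair.
Hoxb8: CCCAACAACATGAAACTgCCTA
The next best site, in Hoxd8, paired at 15 of 22 bases. Levels of the mature miRNAs were not analysed here. The 6 microRNA genes of the clusters had at most 6 counts in any sample.

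Femoral head chondrocytes expressed a broad but selective Hox code that, at a TPM limit of 1, was the same list of genes with and without IL-1β. Taking a TPM of at least 1 in all 4 samples of a group as expressed, 25 Hox genes were expressed with vehicle, the same 25 with IL-1β, and 0 in only 1 group. At a TPM limit of 0.5 the counts were 27 with IL-1β and 29 with vehicle, and at a limit of 2 they were 20 and 20. They were 9 of 11 Hoxa genes, 4 of 10 Hoxb genes, 8 of 9 Hoxc genes and 4 of 9 Hoxd genes. The Hoxb cluster was the sparsest, with Hoxb4, Hoxb6, Hoxb7 and Hoxb9 expressed and Hoxb1, Hoxb2, Hoxb3, Hoxb5, Hoxb8 and Hoxb13 not. At the other extreme, Hoxc12 was the sole Hoxc gene that was not expressed by this measure.

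The highest levels lay in paralog groups 6 to 10. Hoxc10 led with a mean TPM over the 8 samples of 54.1 ± 7.57 (SD), followed by Hoxd9 at 49.2 ± 3.09, Hoxc6 at 37.6 ± 3.04, Hoxc9 at 32.7 ± 3.81 and Hoxa10 at 21.8 ± 3.39. In the order of levels, Hoxc10 and Hoxd9 overlapped in the IL-1β samples but not in the vehicle samples, while the ranges of Hoxd9, Hoxc6, Hoxc9 and Hoxa10 were separate from each other in both groups. Hoxd8 (20.5 ± 1.61), Hoxa7 (15.2 ± 0.693), Hoxc8 (14.8 ± 2.47), Hoxa6 (10.8 ± 2.58) and Hoxa9 (10.1 ± 0.731) completed the first 10, and from Hoxa7 to Hoxa9 the TPM ranges of neighbours overlapped in at least 1 group. Hoxc10 stood above 84.7% of all genes tested by TPM, Hoxd9 above 83.2% and Hoxa10 above 65.3%, with a median over all genes tested of 12.3 TPM. The other 15 expressed members ran from Hoxa5 (9.79 ± 0.82) down to Hoxd10 (1.79 ± 0.354).

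**Figure D1:**
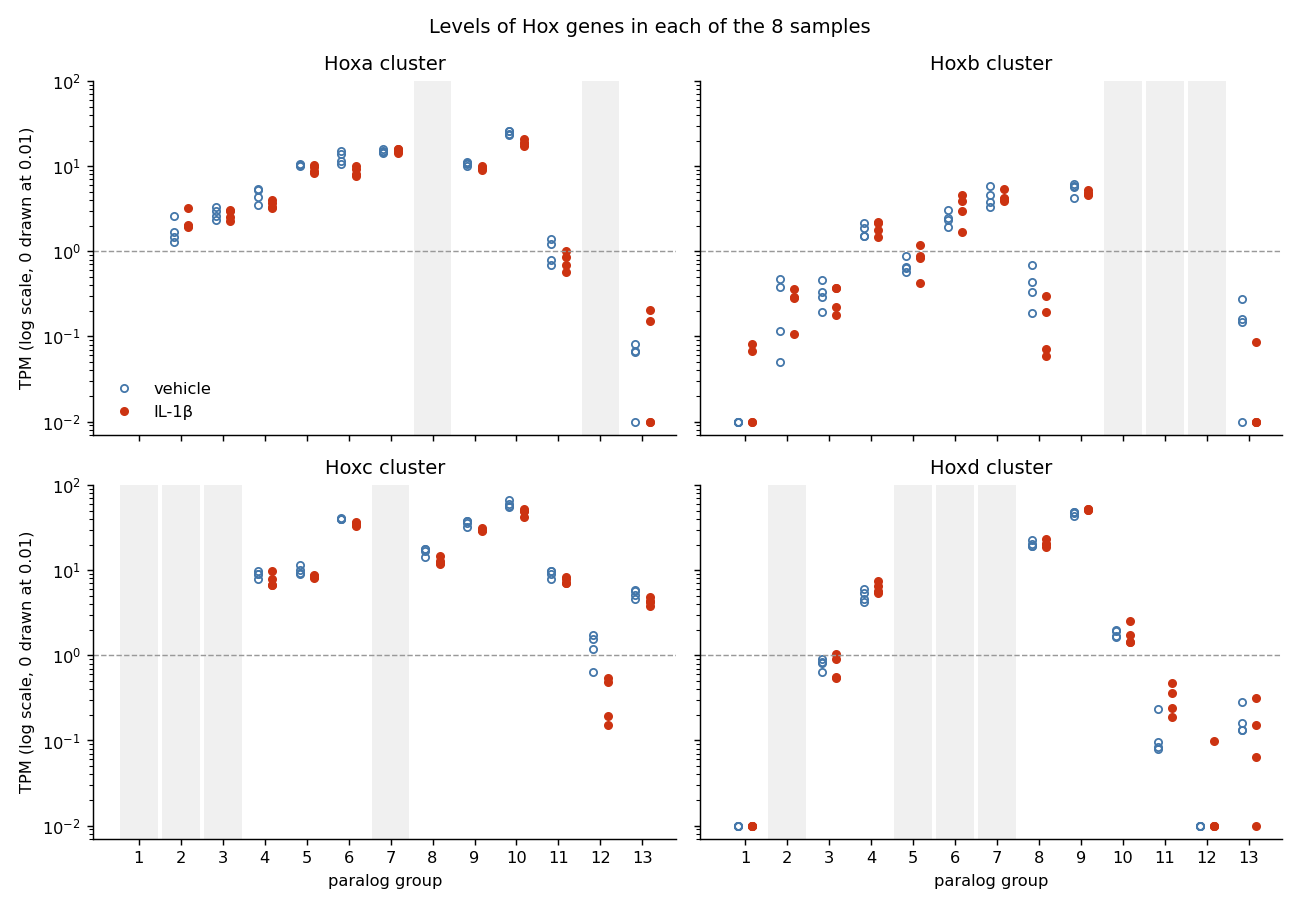
TPM (log axis, 0 drawn at 0.01) of Hox genes in each of the 8 samples, by cluster and paralog group, with vehicle as open blue circles and IL-1β as filled red circles. Grey columns mark paralog numbers that the mouse cluster lacks, and the dashed line is the TPM of 1 taken as expressed. Mean levels peak at Hoxa10, Hoxc10 and Hoxd9 in their clusters, and the genes with all 4 samples of a group above the line are the same in both groups.

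The clusters differed in where levels dropped towards the tail end. In Hoxa the level dropped from Hoxa10, at 24.72 TPM with vehicle, to Hoxa11, which had 9 to 17 counts per vehicle sample, and Hoxa13, which had at most 2 counts in any sample. In Hoxd the drop came 1 gene earlier, from Hoxd9 at 46.77 TPM with vehicle to Hoxd10 at 1.805, and Hoxd11, Hoxd12 and Hoxd13 stayed at or under 10 counts in every sample. Hoxb dropped after group 9 as well, with Hoxb9 at 5.459 TPM with vehicle and Hoxb13 at 0.146. In Hoxc, in contrast, Hoxc11 (9.084 TPM with vehicle) and Hoxc13 (5.295) were both expressed, with Hoxc12 between them at 1.273. Hoxc11 thus held 88.7% of the group 11 TPM with vehicle and 87.5% with IL-1β, and Hoxc13 held 93.2% and 94.8% of the group 13 TPM. Hoxa13 and Hoxd13, the members of group 13 that are known for building the digits, were at or near 0. At the other end, Hoxd1 had 0 counts in all 8 samples, and Hoxb1 had 2 counts over all 8 samples.

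The transcription factors that tell hindlimb from forelimb were read as a check on origin. Tbx4, a hindlimb T-box factor, was at 13.91 TPM with IL-1β and 14.58 with vehicle, and Pitx1, the homeodomain factor that sets hindlimb identity, at 16.88 and 22.01. The forelimb factor Tbx5 had 1 to 3 counts per IL-1β sample and 4 to 6 per vehicle sample, which was too low to test. Both hindlimb factors were thus far above Tbx5 in every sample.

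The levels within this list differed after IL-1β by small amounts, with 6 genes of Hoxa and Hoxc lower and 2 genes of Hoxd higher. Of the 26 Hox genes tested, 2 were higher with IL-1β, 6 were lower and 18 did not pass (adjusted p under 0.05), so that 8 of 26 (30.8%) were called. Over all 14404 genes tested the share called was 40.2%, with 20.4% higher and 19.8% lower. None of the 26 was a differentially expressed gene (DEG, adjusted p under 0.05 and a log2 fold change above 1 or below -1), against 5.21% of all genes tested. By DESeq2 there was no Hox DEG either, and by edgeR without adjustment of p for multiple tests there was still none, since no log2 fold change passed 0.457 in size. Log2 fold changes ran from -0.46 to 0.45 with a median of -0.11, against a median of -0.0012 over all genes tested, and 17 lay below 0. The median size of the change was 0.184 for the Hox genes and 0.157 for all genes tested. The test was able to find changes of this size for the abundant members, whose standard errors went down to 0.0469, but not for scarce ones such as Hoxd3, with a standard error of 0.265.

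**Figure D2:**
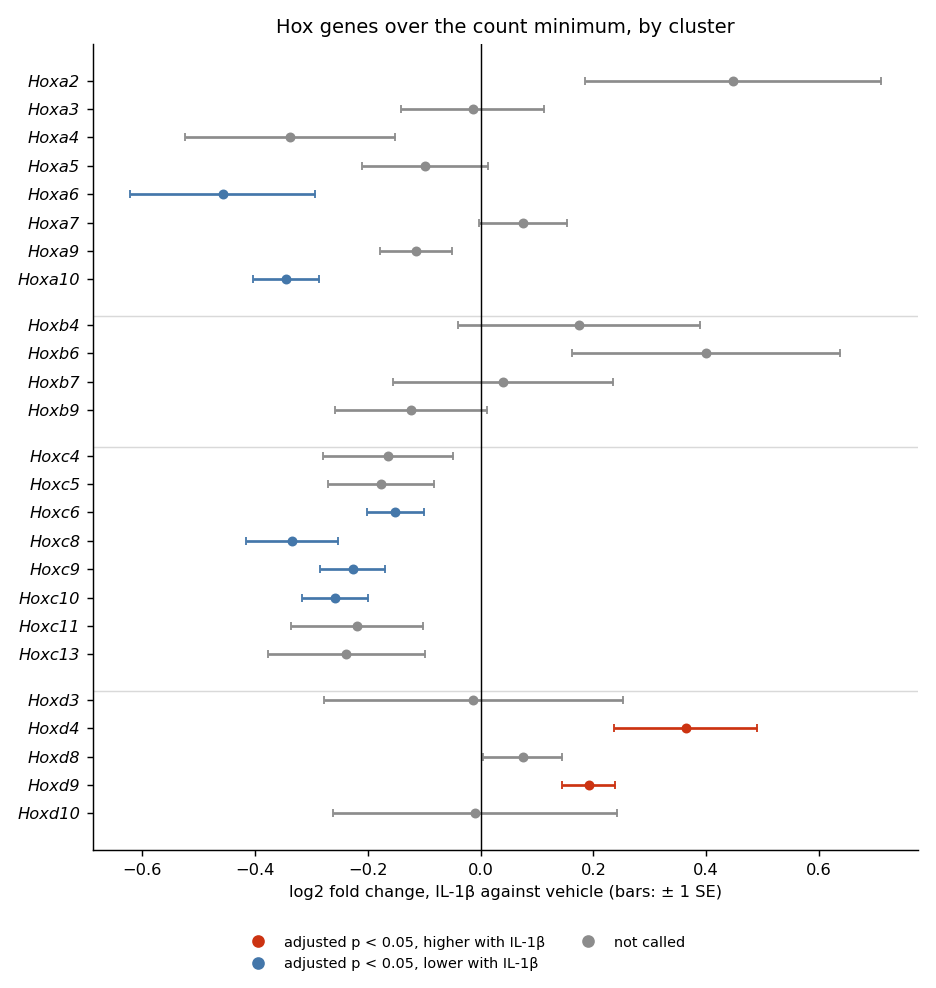
Log2 fold change with IL-1β against vehicle (points, bars ± 1 SE, edgeR) of Hox genes over the count minimum, grouped by cluster and ordered by paralog number. All 8 Hoxc genes lie below 0, 2 Hoxd genes are called higher, and the bars are widest for scarce genes such as Hoxa2 and Hoxd3.

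The change with the smallest adjusted p was that of Hoxa10, which is known for patterning the femur (ENSMUSG00000000938.11, chr6:52231197-52240854, minus strand). Its normalised CPM was 24.6, 22.4, 23.2 and 21.1 in the IL-1β samples and 29.8, 29.8, 27.5 and 28.5 in the vehicle samples. Every IL-1β sample was below every vehicle sample. Hoxa10 fell by 21.3% (log2 fold change -0.35, SE 0.0582, edgeR adjusted p = 1.7e-05). Hoxa6, a scarcer gene of the same cluster (chr6:52206288-52208722), had 2.523, 2.452, 3.326 and 3.049 CPM with IL-1β and 3.519, 3.293, 4.635 and 4.469 with vehicle. The third IL-1β sample of Hoxa6 reached above the lowest vehicle sample. Hoxa6 fell by 27.2% (log2 fold change -0.46, SE 0.164, edgeR adjusted p = 0.0271), a call lost under DESeq2 (adjusted p = 0.0615). Without IL-1β replicate 1 or 2, or vehicle replicate 3 or 4, the adjusted p of Hoxa6 was 0.0639, 0.0843, 0.0932 and 0.0892.

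The other 7 Hoxa genes tested did not pass. Hoxa9, the next gene to Hoxa10, had a log2 fold change of -0.11 (SE 0.064, edgeR adjusted p = 0.167), and Hoxa7 had 0.08 (SE 0.0778, edgeR adjusted p = 0.485). Hoxa4 was at -0.34 with an SE of 0.186, Hoxa5 at -0.10 with an SE of 0.112, Hoxa3 at -0.01 with an SE of 0.127, and the scarce Hoxa2 at 0.45 with an SE of 0.262. The median over the 9 Hoxa genes was -0.10.

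In the Hoxc cluster all 8 genes tested had a log2 fold change below 0, from -0.15 to -0.34. Of them, 4 passed the test (50%, against 40.2% of all genes tested): Hoxc6, Hoxc8, Hoxc9 and Hoxc10. The median was -0.22, and over all genes tested 7240 of 14404 lay below 0. Hoxc10, the most abundant Hox gene, had 36.0, 34.6, 35.7 and 30 CPM with IL-1β against 37.1, 41.1, 44.8 and 40.4 with vehicle, without overlap. It fell by 16.4% (log2 fold change -0.26, SE 0.0588, edgeR adjusted p = 0.000725). Hoxc8 (chr15:102990607-102994111), a gene of trunk and limb patterning, had 14.9, 12.4, 13.6 and 12.8 CPM with IL-1β against 16.7, 17.7, 18.0 and 15.1, again without overlap. It fell by 20.7% (log2 fold change -0.34, SE 0.0815, edgeR adjusted p = 0.0014).

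Hoxc9 (chr15:102976439-102985099) was at 25.59, 27.4, 27.02 and 26.17 CPM with IL-1β and 32.08, 32.53, 27.38 and 32.14 with vehicle. Vehicle replicate 3 stood apart from the other 3 vehicle samples and touched the IL-1β range. Hoxc9 fell by 14.5% (log2 fold change -0.23, SE 0.0581, edgeR adjusted p = 0.00229), and without vehicle replicate 3 the log2 fold change was -0.28. Hoxc6 (chr15:102998257-103011881) had the smallest change of the 4, from 34.6 ± 1.01 to 31.1 ± 1.4 CPM (SD, n = 4), without overlap. It fell by 9.97% (edgeR adjusted p = 0.0173), a call lost under DESeq2 (adjusted p = 0.0637), without IL-1β replicate 2 (0.0784) and without vehicle replicate 4 (0.0606).

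Hoxc4, Hoxc5, Hoxc11 and Hoxc13 did not pass, with log2 fold changes of -0.16, -0.18, -0.22 and -0.24 and adjusted p-values of 0.282, 0.141, 0.145 and 0.186. The IL-1β and vehicle samples of Hoxc5 did not overlap all the same (9.37 to 9.95 against 10.2 to 12.3 CPM). Groups without overlap were found for 6 of the 26 Hox genes, against 36.8% of all genes tested. Parts of Hoxc5 and Hoxc10 are annotated over the same 166 exon bases, which are 5.37% and 8.7% of their exons, so that reads from these bases cannot be assigned to 1 of them. The other cluster member, Hoxc12, was too scarce to test under the filter. It had 2, 1, 1 and 3 counts with IL-1β against 4, 11, 6 and 9 with vehicle, or 7 against 30 in all. Without the filter it was called (log2 fold change -1.84, SE 0.603, edgeR adjusted p = 0.0151), and it was the single Hox gene among the 13 untested ones for which this was so, though with every IL-1β sample at or under 3 counts the size of that fold depends on the fit.

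The Hoxd cluster held the only members called higher. Hoxd9 (ENSMUSG00000043342.9, chr2:74697727-74700208) had 39.5, 39.3, 42.5 and 41.5 CPM with IL-1β and 36.5, 36.6, 35.2 and 34.5 with vehicle. Every IL-1β sample was above every vehicle sample. Hoxd9 rose by 14.2% (log2 fold change 0.19, SE 0.0469, edgeR adjusted p = 0.00146). Hoxd4 (chr2:74711929-74729160), an early gene of the cluster, had 7.929, 6.202, 7.187 and 5.957 CPM with IL-1β and 6.115, 4.737, 5.634 and 4.6 with vehicle, with overlap. It rose by 28.7% (log2 fold change 0.36, SE 0.127, edgeR adjusted p = 0.023), but 52.3% of its exon bases are also annotated to Hoxd3, Hoxd3os1 or Gm28230, and reads there cannot be told apart. The call of Hoxd4 was lost under DESeq2 (adjusted p = 0.0501), with 1 factor of unwanted variation removed (0.0544), and without IL-1β replicate 1 (0.0805), IL-1β replicate 3 (0.0716), vehicle replicate 2 (0.0785) or vehicle replicate 4 (0.0821). Hoxd8, between the called genes in paralog order, had a log2 fold change of 0.07 (SE 0.0697, edgeR adjusted p = 0.437), and Hoxd3 and Hoxd10 were at -0.01 with SEs of 0.265 and 0.252.

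**Figure D3:**
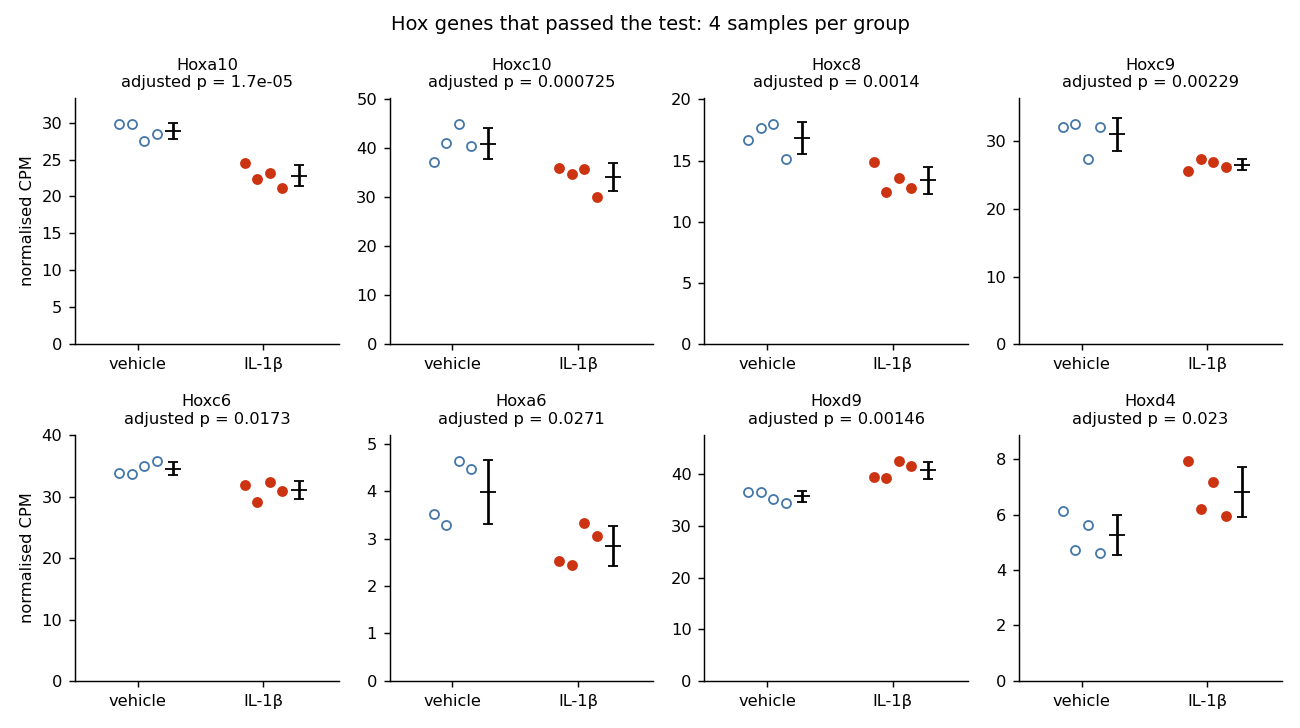
Normalised CPM of the 8 Hox genes that passed the test in each of the 4 vehicle samples (open blue) and 4 IL-1β samples (filled red), with the mean ± SD in black beside them and each axis starting at 0. Hoxa10, Hoxc10, Hoxc8, Hoxc6 and Hoxd9 show no overlap between groups, while Hoxc9, Hoxa6 and Hoxd4 do overlap.

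None of the 4 Hoxb genes tested passed, where 40.2% of all genes tested did. Hoxb6 had the largest difference, with a log2 fold change of 0.40 and an SE of 0.238 (edgeR adjusted p = 0.195), and it was called solely without IL-1β replicate 3 (0.65, edgeR adjusted p = 0.021). Hoxb4, Hoxb7 and Hoxb9 were at 0.18, 0.04 and -0.12. Hoxb8, whose near-perfect miR-196a site is printed above, stayed below the count minimum, with 2, 4, 1 and 1 counts with IL-1β and 3, 7, 9 and 5 with vehicle. Its unfiltered log2 fold change was -1.35 (SE 0.624, edgeR adjusted p = 0.136). Of the 9 Hox genes with a miR-196 seed match 8 were tested, and Hoxc8 was the only member of these to pass. The share called was 30.8% over all Hox genes tested and 40.2% over all genes tested, and the difference from these shares was not tested. Hoxa7, with 4 matches, had 15.4, 14.9, 17.3 and 17.3 CPM with IL-1β and 14.7, 16.2, 14.7 and 16.3 with vehicle, with overlap.

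The remaining untested members were all scarce. Hoxd11 had 4, 10, 5 and 8 counts with IL-1β and 2, 6, 2 and 2 with vehicle (unfiltered log2 fold change 1.33, SE 0.542, edgeR adjusted p = 0.0743). Hoxa11 had 36 counts over the IL-1β samples and 53 over the vehicle samples, Hoxb5 47 and 44, Hoxb3 26 and 31, Hoxb2 19 and 21, and Hoxd13 7 and 10. Hoxa13, Hoxb1, Hoxb13, Hoxd1 and Hoxd12 were at 3 counts or fewer in every sample, so that a difference between groups was not detectable at this depth.

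The balance between clusters shifted from Hoxc towards Hoxd. Hoxc held 51.4% ± 0.326 (SD, n = 4) of the summed Hox TPM with vehicle and 47.4% ± 0.679 with IL-1β, and Hoxd held 20.6% ± 0.566 and 25.1% ± 0.448. For both clusters the ranges of the groups did not overlap. Hoxa went from 23.6% ± 0.283 to 22.6% ± 0.646, with ranges that overlapped at 23.2% to 23.3%, and Hoxb from 4.36% ± 0.518 to 4.92% ± 0.31. The summed Hox TPM was 364 ± 10.1 with vehicle and 325 ± 13.2 with IL-1β, or 0.0318% to 0.0321% and 0.0286% to 0.0303% of all counts in a sample, which did not overlap either. The shares were not tested, and they take part of their value from the gene lengths used.

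By paralog number, groups 9, 10, 6 and 8 led in this order with and without IL-1β. Group 9 held the largest share of the summed TPM in both conditions, 27.1% ± 1.35 with vehicle and 29.4% ± 1 with IL-1β. Group 10 followed with 23.7% ± 0.821 and 21.2% ± 1.24, whose ranges did not overlap, and group 6 with 15.2% ± 0.827 and 14.5% ± 0.387. Groups 1 to 4 together made up 7.78% ± 0.463 and 8.66% ± 0.507, groups 5 to 8 36.6% ± 0.775 and 36.6% ± 0.65, and groups 9 to 13 55.6% ± 0.944 and 54.8% ± 0.367. Among genes tested, 1 of 8 in groups 1 to 4 was higher and 0 lower. In groups 5 to 8, 0 of 9 were higher and 3 lower, and in groups 9 to 13, 1 of 9 was higher and 3 lower. Over all genes tested, 20.4% were higher and 19.8% lower. In groups 9 to 13, 8 of the 9 had a log2 fold change below 0 (median -0.22), Hoxd9 being the exception.

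Within paralog groups, where proteins are most alike and can stand in for each other, the shares of tested members shifted in groups 4, 8 and 9. Hoxd9 made up 47.4% ± 1.67 of group 9 TPM with vehicle and 54% ± 0.774 with IL-1β, while Hoxc9 went from 36.2% ± 1.48 to 31% ± 1.03 and Hoxa9 from 10.8% ± 0.522 to 9.94% ± 0.338, each without overlap. Hoxb9 was the smallest member of the group, at 5.52% ± 0.673 and 5.07% ± 0.274, with overlap. In TPM there were 1.31 ± 0.103 Hoxd9 transcripts for each Hoxc9 transcript with vehicle and 1.74 ± 0.0784 with IL-1β. In group 8 the shares moved the same way. Hoxd8 was at 54.4% ± 1.95 and 61.3% ± 3.02, and Hoxc8 at 44.6% ± 1.98 and 38.2% ± 3.18. Hoxd8 itself did not pass the test (log2 fold change 0.07, edgeR adjusted p = 0.437), while Hoxc8 was called lower. In group 4, Hoxd4 went from 24.5% ± 2.46 to 32.1% ± 2.06 of the TPM, without overlap. The untested Hoxd11, at 10 counts or fewer in every sample, held 0.706% to 2.15% of group 11 with vehicle and 2.35% to 5.54% with IL-1β. Group 10, in which both main members fell, kept its proportions: Hoxc10 held 69.2% ± 2.3 and 70% ± 1.04, and Hoxa10 28.7% ± 2.22 and 27.4% ± 0.764, with overlapping ranges. Between the leading genes of groups 9 and 10, the Hoxd9 to Hoxc10 ratio in TPM was 0.702 to 0.878 with vehicle and 0.981 to 1.24 with IL-1β, where it lay on both sides of 1.

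**Figure D4:**
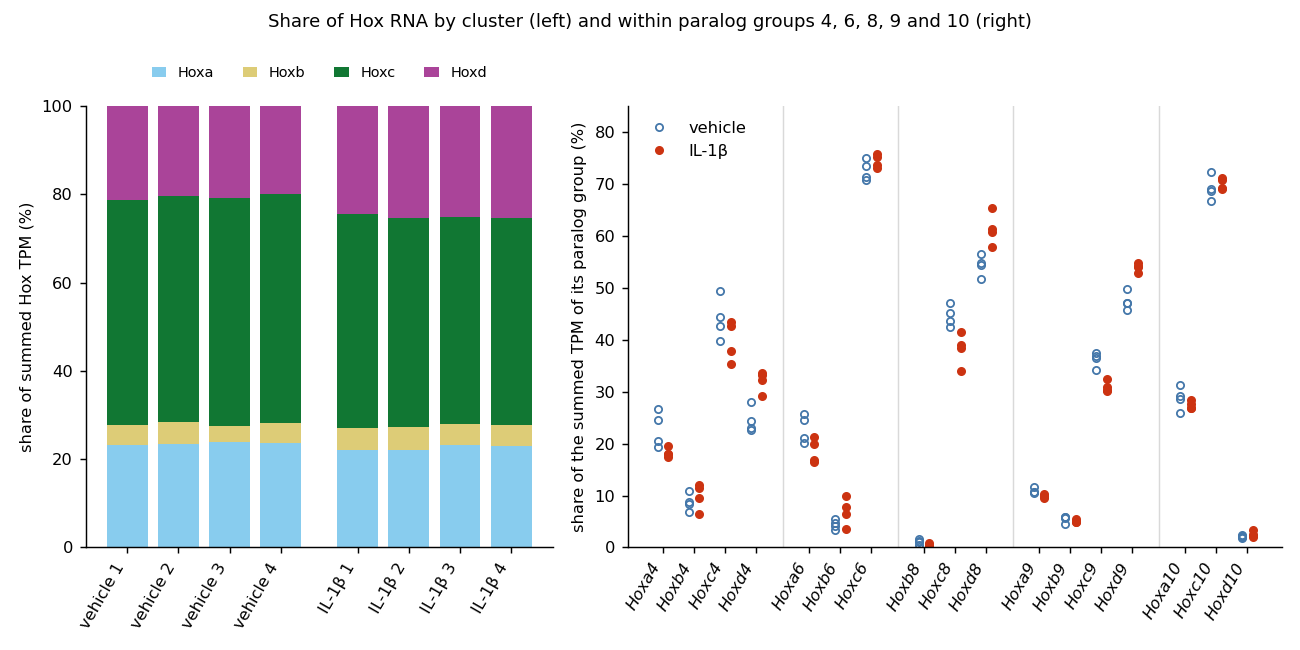
Left, share of the summed Hox TPM held by each cluster in each sample (stacked bars, in percent). Right, share of each gene in the summed TPM of its paralog group for groups 4, 6, 8, 9 and 10, with vehicle open and IL-1β filled. Hoxd takes more and Hoxc less of the total in all 4 IL-1β samples, and Hoxd9, Hoxd8 and Hoxd4 take more of their groups while the group 10 members overlap.

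The start regions of the genes with the smallest adjusted p among those called lower and higher, Hoxa10 and Hoxd9, are printed from RefSeq (GRCm38.p6) as 300 bases, of which 250 lie before the annotated start. For Hoxa10, which has another start upstream, it is chr6:52234890-52235189 (minus strand), and for Hoxd9 chr2:74697513-74697812 (plus strand). Capitals mark the TATA box letters TATAAA and the CCAAT box letters CCAAT, on either strand.
Hoxa10: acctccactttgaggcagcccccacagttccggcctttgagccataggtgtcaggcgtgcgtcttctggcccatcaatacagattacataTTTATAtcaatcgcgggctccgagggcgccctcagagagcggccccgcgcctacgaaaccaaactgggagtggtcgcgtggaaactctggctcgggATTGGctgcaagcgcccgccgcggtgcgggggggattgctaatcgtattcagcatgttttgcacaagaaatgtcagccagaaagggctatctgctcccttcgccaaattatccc
Hoxd9: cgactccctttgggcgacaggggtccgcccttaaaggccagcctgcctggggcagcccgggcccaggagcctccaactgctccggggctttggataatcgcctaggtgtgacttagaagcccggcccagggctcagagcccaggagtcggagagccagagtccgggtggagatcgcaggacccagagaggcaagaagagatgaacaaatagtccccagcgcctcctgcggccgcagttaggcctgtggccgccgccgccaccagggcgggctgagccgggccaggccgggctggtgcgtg
Both are rich in CpG, with 21 and 20 CpG sites against a median of 7 over all 32851 promoters listed and 14.5 over the 24 Hox promoters of 22 genes that were listed. The Hoxa10 window held the TATA and CCAAT letters, and the Hoxd9 window held neither. CCAAT was found in 62.5% of the Hox promoters and 37.4% of all promoters, and TATAAA in 16.7% and 13.6%. The AP-1 letters TGANTCA, searched because AP-1 and NF-κB act downstream of IL-1β, were found in 1 of the 24 Hox promoters (Hoxd11) and in 7.81% of all promoters. The NF-κB motif was found in 1 (Hoxa13) and in 8.46% of all. The 24 Hox promoters did not include any of Hoxc6, Hoxc8, Hoxc9 and Hoxc10, which were called lower. The letters TGATNNAT, bound by Hox proteins together with Pbx, were found in 4 of 24 Hox promoters and 8.85% of all.

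Hox genes also share stretches of sequence, and whether these altered their counts was not tested. Of all pairs of Hox genes, 22 share an unbroken run of 30 or more bases in their transcripts, the longest being 52 bases. A read that falls wholly inside such a run cannot be placed in 1 gene. Of the 39 genes, 14 share over 5% of their exon bases with another annotated gene, and leaving these out left 1 gene higher and 5 lower.

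Non-coding RNAs of the clusters, some of which are known to act on chromatin in cis or in trans, were scarce. Of 43 annotated, 14 had no count in any sample and 6 were tested. None of the 6 passed edgeR's test or DESeq2's, and none had an unadjusted p under 0.05. The most abundant per length was Gm11539 of the Hoxb cluster, at 28.24 TPM with IL-1β and 28.39 with vehicle. Hotairm1 of the Hoxa cluster was at 5.973 and 5.12 TPM (log2 fold change 0.25, SE 0.197), Hoxd3os1 at 5.928 and 5.366 TPM, Hoxaas3 at 1.718 and 1.371 TPM and Gm15050 at 5.706 and 7.16 TPM. Hotair, the Hoxc antisense RNA that lies between Hoxc11 and Hoxc12, had 4, 2, 4 and 0 counts with IL-1β and 8, 4, 4 and 9 with vehicle, too few to test. Haglr of the Hoxd cluster had 7, 4, 8 and 11 counts with IL-1β and 2, 7, 2 and 3 with vehicle. These last genes were chosen after their values were seen. Whether counting used the strand is not given in the sources used here, so reads of antisense pairs cannot be told apart.

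Genes that flank the clusters were compared to see whether the shifts ran past the cluster ends. Of the 24 nearest coding neighbours, 3 on each side of each cluster, 19 were tested. Of these, 3 were higher and 4 lower (36.8% called, near the 40.2% of all genes tested), with a median log2 fold change of -0.04. Snx10, a sorting nexin beside Hoxa, rose (log2 fold change 0.66, edgeR adjusted p = 5.91e-08), as did Nfe2l2, the antioxidant regulator Nrf2 beside Hoxd (0.30, edgeR adjusted p = 1.02e-09). Atp5g1, an ATP synthase subunit beside Hoxb, fell (-0.43, edgeR adjusted p = 9e-12), as did Hnrnpa1, a splicing factor beside Hoxc (-0.26, edgeR adjusted p = 4.63e-07). Atp5g2, also beside Hoxc, was at 0.01 (SE 0.0379). Hnrnpa1 and Atp5g2, which lie beside the same cluster, thus differed in whether they passed.

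Hox proteins bind DNA together with TALE homeodomain partners of the Pbx, Meis and Pknox families, and some of these showed larger changes than any Hox gene tested. Of 8 tested, 1 was higher and 3 lower (50% called, against 40.2% of all genes tested), the lower ones being Meis2, Meis1 and Pknox2. Meis2 went from 68.0, 70.1, 72.6 and 69.3 CPM with vehicle to 44.0, 50.1, 45.3 and 47.3 with IL-1β, a log2 fold change of -0.58 (SE 0.0435, edgeR adjusted p = 4.76e-12). Meis1 fell too, from 8.676 to 6.426 TPM (log2 fold change -0.39, SE 0.0523, edgeR adjusted p = 4.66e-07). Neither gene's groups overlapped. Pknox2 had 16.67, 14.96, 16.12 and 17.28 CPM with vehicle and 7.389, 8.149, 8.256 and 8.155 with IL-1β, a log2 fold change of -1.02 (SE 0.0877, edgeR adjusted p = 1.03e-10), and was the sole DEG among them. The most abundant per length, Pbx2 (16.02 TPM with IL-1β, 16.07 with vehicle) and Pknox1 (13.29 and 14.3), did not pass, with log2 fold changes of 0.05 and -0.05. Pbx4 was below the count minimum.

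Other limb patterning factors were mostly lower with IL-1β. Of 36 listed, 20 were tested, of which 1 was higher and 13 lower (70% called, against 40.2% of all genes tested). The median log2 fold change was -0.35, and 19 lay below 0. Dlx5, a homeobox gene of cartilage and bone differentiation, had 20.08, 20.39, 24.96 and 20.18 CPM with vehicle and 8.65, 7.356, 8.315 and 8.085 with IL-1β (log2 fold change -1.40, SE 0.0903, edgeR adjusted p = 1.86e-13). The paired-type homeobox genes of limb mesenchyme fell with it, Prrx1 by 0.80 on the log2 scale (edgeR adjusted p = 2.16e-10) and Prrx2 by 1.07 (edgeR adjusted p = 6.55e-09). Tbx3, a T-box repressor of the limb margins, was the single gene to rise. It had 0.865, 0.867, 0.357 and 0.46 CPM with vehicle and 2.70, 4.62, 4.34 and 4.68 with IL-1β (log2 fold change 2.64, SE 0.246, edgeR adjusted p = 5.04e-10).

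Among the factors of limb type and segment, Pitx1 had 15.2 to 18.2 CPM with IL-1β against 19.0 to 21.6 with vehicle and fell (log2 fold change -0.35, SE 0.0712, edgeR adjusted p = 0.000219). Tbx4 did not pass, with 15.5 to 18.7 CPM against 16.3 to 18.9 (log2 fold change -0.02, SE 0.0749). Shox2, which patterns the upper limb segment and was at 20.97 TPM with IL-1β and 25.39 with vehicle, fell (log2 fold change -0.22, SE 0.0569, edgeR adjusted p = 0.00242). Isl1, an early hindlimb factor, was at about 1 TPM in both groups and did not pass (log2 fold change -0.16, SE 0.236). The most abundant of the list per length were Barx1, a homeobox gene of joints (48.94 TPM with IL-1β, 64.73 with vehicle), and Tbx15 (52.95 and 61.77), and both fell, with log2 fold changes of -0.35 and -0.18 (edgeR adjusted p = 5.86e-05 and 0.000481).

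**Figure D5:**
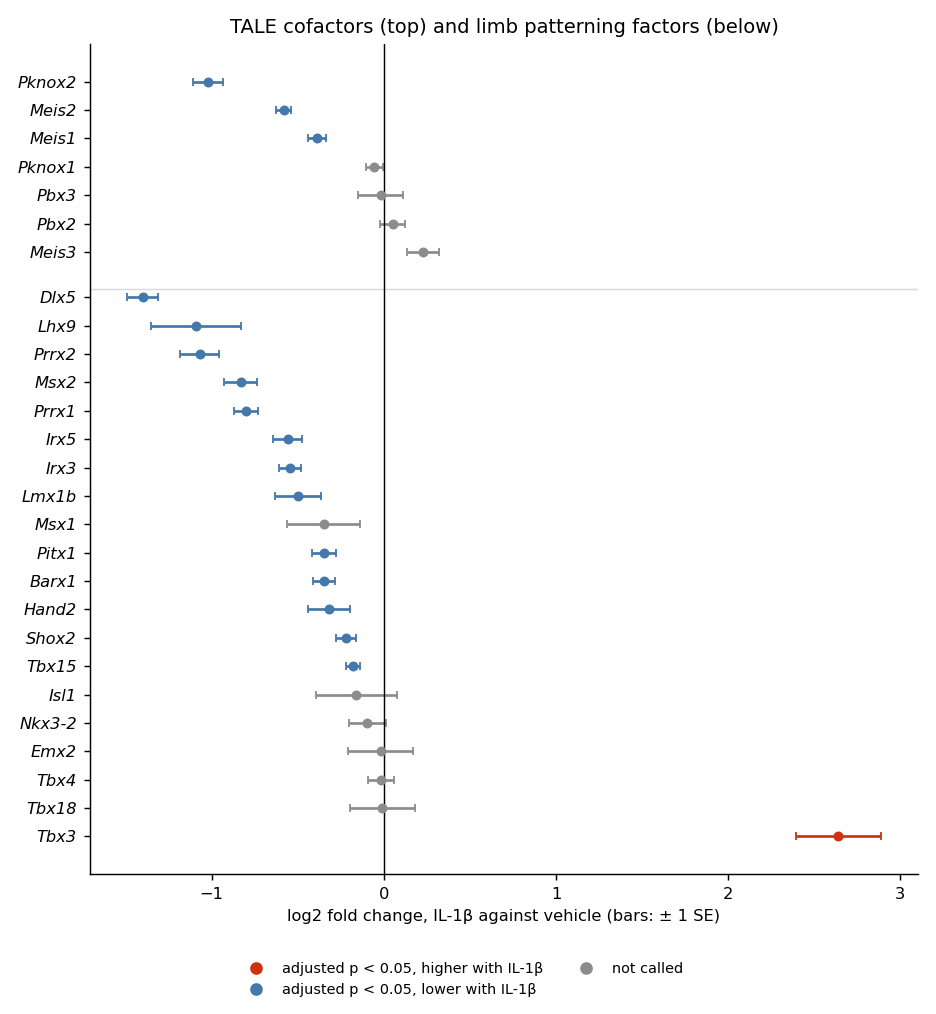
Log2 fold change with IL-1β against vehicle (points, bars ± 1 SE, edgeR) of TALE cofactors and limb patterning factors over the count minimum, each ordered by value. Tbx3 is the gene drawn that is called higher, and 3 cofactors and 13 limb factors are called lower, reaching -1.40 for Dlx5.

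Polycomb proteins keep silent Hox genes shut, and Trithorax proteins and H3K27 demethylases keep active ones open. Of 32 Polycomb genes, all tested, 4 were higher and 7 lower (34.4% called, against 40.2% of all genes tested). Their median log2 fold change was -0.04. Mtf2, a PRC2 accessory factor, rose from 8.353 to 12.91 TPM (log2 fold change 0.66, SE 0.0759, edgeR adjusted p = 3.15e-08), and the PRC1 subunit Phc1 rose as well (0.32, edgeR adjusted p = 5.94e-06). The PRC1 members Rybp and Rnf2 fell, with log2 fold changes of -0.32 and -0.21 (edgeR adjusted p = 3.47e-05 and 0.000198). Of the histone-binding subunits, which were the most abundant per length, Rbbp7 fell (-0.11, edgeR adjusted p = 0.00453) and Rbbp4 did not pass (-0.02, SE 0.0335). Of 15 Trithorax and demethylase genes, 2 were higher and 3 lower (33.3% called, against the same 40.2%). Men1 rose (0.23, edgeR adjusted p = 0.000615), while the methyltransferase Kmt2c (-0.23, edgeR adjusted p = 1.15e-06) and the demethylases Kdm6b (-0.17, edgeR adjusted p = 0.000236) and Kdm6a (-0.16, edgeR adjusted p = 0.00213) fell. Kmt2d, the most abundant of them per length, was at -0.01 (SE 0.0306).

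Retinoic acid is a classical inducer of Hox genes at the head end of the clusters. Of 18 genes of its pathway, 9 were tested, of which 1 was higher and 5 lower (66.7% called, against 40.2% of all genes tested). The median log2 fold change was -0.16. Rarg, the main retinoic acid receptor of cartilage, fell from 252, 249, 242 and 251 CPM to 197, 208, 211 and 215 (log2 fold change -0.26, SE 0.0323, edgeR adjusted p = 1.33e-07). Its partner Rxra fell by 0.16 on the log2 scale (edgeR adjusted p = 0.00121), and Dhrs3, which turns retinal back to retinol, by 0.41 (edgeR adjusted p = 3.97e-06). Crabp2, a carrier of retinoic acid to the nucleus, had 1.57 to 2.02 CPM with vehicle and 0.426 to 1.08 with IL-1β and was the sole DEG of the list (log2 fold change -1.33, SE 0.266, edgeR adjusted p = 0.000166).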

How the data were processed

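RNA-Seq libraries of total RNA were made from 8 samples of primary murine articular chondrocytes. Adapters were removed by the authors with cutadapt, STAR (version 2.4.2a per the labels) placed the reads on mm10 with the GENCODE vM20 annotation, and featureCounts assigned them to genes. The deposited values are unscaled, whole-number counts for each gene symbol, with gene lengths in bases in another column (unit: other). Whether the deposited counts precede or follow the RUVseq step in the methods, and whether counting used the strand, is not given in the sources used here.

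The labelled treatment gave the groups. In R 4.3.3, edgeR 4.0.16 was run on the counts with TMM factors and its quasi-likelihood F-test, keeping the 14404 genes whose CPM exceeded 1 in 4 or more samples, and Benjamini-Hochberg adjustment ran over all of them. Fold changes come from TMM-normalised counts. TPM was computed from the counts and the deposited lengths and used for levels and shares only. Positions, overlaps and 3′ UTRs are those of GENCODE vM21 (GRCm38), to which 54000 symbols (98.8%) and all 39 Hox genes matched. miRNA and promoter sequences were taken from RefSeq (GRCm38.p6). Motifs were searched on both strands, the NF-κB motif by its consensus.

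The Hox genes and the other gene lists were chosen with earlier results of these data known. In the lists other than Hox, the genes named are those with the smallest adjusted p, those with the highest TPM and the limb-type factors, and exceptions are marked. A few items are counted in the totals but not reported here. On simulated data edgeR recovered 95.5% of 200 genes changed 2-fold among 14404, with 12 false calls. Changes smaller than 2-fold, such as those of the Hox genes, were not simulated. Alternatives were DESeq2 1.42.0, other scalings and filters, the replicate number as a block, 1 factor of unwanted variation (RUVs), glmTreat, other lengths and TPM limits, and each sample left out in turn. Counting limits cover counting error alone, because the reads carry no molecular identifiers and may include copies of 1 molecule.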

Additional observations from a re-analysis of the deposited data

Results flagged for a closer look

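Of the 52 groups of 4 values compared (each tested Hox gene in each treatment), 4 held a sample far from its group by Dixon's ratio, where chance gives about 2.6. In the vehicle samples, Hoxc9 was at 27.38 CPM in replicate 3 against 32.08 to 32.53 in the others, Hoxc11 at 5.563 CPM in the same replicate against 6.769 to 6.991, and Hoxb9 at 3.851 CPM, again in replicate 3, against 5.315 to 5.538. Without vehicle replicate 3 the log2 fold change was -0.28 for Hoxc9 (edgeR adjusted p = 0.000197), -0.28 for Hoxc11 (edgeR adjusted p = 0.0665) and -0.22 for Hoxb9 (edgeR adjusted p = 0.201), so that only Hoxc9 of these was called with or without it. Hoxa2 was at 2.091 CPM in IL-1β replicate 2 against 1.262 to 1.366 in the others, and without it the log2 fold change went from 0.45 to 0.25 (edgeR adjusted p = 0.538).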

How the results depend on the processing

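Over 412 pairs of a Hox gene and an alternative, 382 kept their direction and side of the threshold, 14 lost the call, 1 gained it and 15 changed sign. The 15 were in 4 genes that were not called, when a sample was left out. Log2 fold changes then ran from -0.105 to 0.0608 for Hoxa3, -0.0924 to 0.212 for Hoxb7, -0.209 to 0.126 for Hoxd3 and -0.164 to 0.0814 for Hoxd10. Hoxa10, Hoxc8, Hoxc9, Hoxc10 and Hoxd9 were called under every alternative in these pairs. Their log2 fold changes were -0.38 to -0.31, -0.38 to -0.30, -0.28 to -0.19, -0.30 to -0.20 and 0.17 to 0.22, in that order. The pairs leave out glmTreat, which tested against a log2 fold change of 0.5 and called 0 Hox genes. The genes called higher numbered 2, and 1 under DESeq2, 1 with RUVs, 1 without Hox genes that share over 5% of their exon bases (an alternative chosen after seeing the data) and 1 to 2 with each sample left out. The genes called lower numbered 4 under DESeq2 and 7 without a filter. With no filter there was 1 Hox DEG, Hoxc12. Dividing by unshared exon length gave shares of 24.2% for Hoxa with vehicle, of 46.1% with IL-1β and 50.3% with vehicle for Hoxc, and of 26.0% and 21.3% for Hoxd. CPM not divided by length gave 27% and 27.8% for Hoxa, 44.5% and 48.3% for Hoxc, 24.1% and 19.9% for Hoxd, and 4.42% for Hoxb with IL-1β. The Hox genes expressed numbered 27 with IL-1β and 29 with vehicle at a TPM limit of 0.5, 20 and 20 at a limit of 2, 26 and 27 with unshared exon length, and 23 and 24 in CPM not divided by length. The same-numbered samples of the groups did not deviate together (r = 0.0416, -0.0505, -0.0118 and -0.0699), and with the replicate number as a block 2 Hox genes were higher and 6 lower. Depth limits the 13 untested genes, for which 3 counts is the smallest abundance shown.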
